A study of Homo sapiens with 12 samples.

Results

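The genes described here are 36 members of the cell's response to unfolded proteins and amino acid shortage, out of 60715 genes listed. They were taken by symbol from a named list, no symbol occurred more than once, and each of the 36 had enough counts to be tested. A group of 22 forms the ER chaperone and XBP1 arm, called the ER arm below. It holds sensors and transcription factors (ATF6, ERN1, XBP1, CREB3L1), chaperones of the HSP70 and HSP90 system with their helpers (HSPA5, HSP90B1, HYOU1, DNAJB9, DNAJB11, DNAJC3, SDF2L1, MANF, CRELD2), lectin chaperones (CALR, CANX), disulfide isomerases (PDIA4, PDIA6), degradation factors (HERPUD1, EDEM1, SEL1L, SYVN1) and a translocon subunit (SEC61B). The other 14 form the ATF4 and amino acid arm, called the ATF4 arm: transcription factors (ATF4, DDIT3, ATF3, CEBPB), feedback and glutathione genes (PPP1R15A, TRIB3, CHAC1), genes that restrain the growth kinase mTORC1 (DDIT4, SESN2), enzymes of amino acid synthesis (ASNS, PSAT1, PHGDH, SHMT2) and the lipoprotein receptor VLDLR.

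RNA was sequenced from 4 established cell lines of human lung adenocarcinoma in 3 states. The lines are HCC4006, LC-2/ad, NCI-H2009 and NCI-H2228. Attached cells in ordinary culture, with no further treatment and no time label, were the control. The detached groups were cells taken up with trypsin and put on ultra-low attachment plates, where cells cannot spread, with RNA extracted after 1 day or 7 days. All groups shared RPMI-1640 medium with fetal bovine serum and antibiotics, and no allele or agent besides detachment is labelled. Each line gave 1 library per state, so the 4 lines are the replicates and a change within a line carries no test. Loss of attachment cannot be told apart from trypsin, replating or time in culture. In bulk RNA, fewer cells of a kind and less RNA per cell cannot be told apart either. Library values are given throughout with NCI-H2009 first, then LC-2/ad, then NCI-H2228 and HCC4006 last, called the usual order.

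The endoplasmic reticulum (ER) folds secreted and membrane proteins, and its chaperone HSPA5, also called BiP, binds unfolded chains. When such chains pile up, the kinase IRE1, encoded by ERN1, splices XBP1 mRNA so that an active factor is made, ATF6 is cut to release another factor, and the kinase PERK phosphorylates eIF2. XBP1 and ATF6 switch on chaperones, disulfide isomerases and the machinery that sends misfolded proteins to the proteasome. Phosphorylated eIF2 slows translation in general but favours translation of ATF4, which switches on amino acid synthesis, amino acid import and stress factors such as DDIT3, also called CHOP. Other kinases that sense amino acid lack, heme lack or double-stranded RNA reach ATF4 through the same eIF2 site, so the ATF4 arm can move without the ER arm. Splicing of XBP1, cleavage of ATF6 and translation of ATF4 are not read by gene-level RNA values.

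Letters in the promoters of both arms were searched as well. The members were listed as genes of these responses, so shares above those of all windows may follow from that choice. The shares are no test, and members such as DNAJB9 and DDIT3 held no match of any kind searched. Promoter windows of 300 bases, 250 before and 50 after the start, came from RefSeq on build GRCh38.p14, and the first listed window of a member was used. All 22 ER arm members and 13 of the 14 ATF4 arm members had one, SHMT2 being the member without. Both strands were searched for the ER stress element (ERSE, CCAAT and CCACG with 9 bases between them), a shorter form of it (ERSE-II, ATTGG and CCACG with 1 base between them), the core of the XBP1 and ATF6 element (UPRE core, TGACGTGG) and the element bound by ATF4 with C/EBP factors (CARE, TGATGNAA). ERSE, ERSE-II and the UPRE core share the letters CCACG or its complement in part, so that their matches can overlap. ERSE letters were found in 6 of 22 ER arm windows (27.3%), in 0 of 13 ATF4 arm windows and in 0.0769% of all 35116 windows. ERSE-II letters were in 3 of 22 (13.6%), 0 of 13 and 0.0541%, and the UPRE core in 1 of 22 (4.55%), 0 of 13 and 0.729%. CARE letters were in 1 of 22 ER arm windows (4.55%), in 3 of 13 ATF4 arm windows (23.1%) and in 3.62% of all windows.

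ERSE matches lay in the windows of XBP1, HSPA5, HSP90B1 (2 matches), CRELD2, CALR and CANX. ERSE-II matches were in HYOU1 (2 matches, of which 1 overlaps its UPRE core match), SDF2L1 and HERPUD1. CARE matches were in ATF3, CHAC1, ASNS and, of the ER arm, HERPUD1, which thus held letters of both kinds. A match describes letters and does not show binding. The 7 members whose library values are given below and that held a match are shown 5′ to 3′ on the gene's strand, with matched letters in capitals. Bases annotated as UTR in GENCODE v29 were left out, apart from 30 bases at CHAC1 and ASNS, where the match itself lies in a 5′ UTR of a longer transcript. The stretches, all on GRCh38.p14, are chr22:28800598-28800819 on the minus strand for XBP1, chr9:125241344-125241593 on the minus strand for HSPA5, chr22:49918459-49918633 on the plus strand for CRELD2, chr16:56931892-56932047 on the plus strand for HERPUD1, chr1:212565157-212565333 on the plus strand for ATF3, chr15:40953251-40953280 on the plus strand for CHAC1 and chr7:97872458-97872487 on the minus strand for ASNS. XBP1, HSPA5 and CRELD2 show ERSE, HERPUD1 shows CARE and then ERSE-II, and ATF3, CHAC1 and ASNS show CARE.
XBP1: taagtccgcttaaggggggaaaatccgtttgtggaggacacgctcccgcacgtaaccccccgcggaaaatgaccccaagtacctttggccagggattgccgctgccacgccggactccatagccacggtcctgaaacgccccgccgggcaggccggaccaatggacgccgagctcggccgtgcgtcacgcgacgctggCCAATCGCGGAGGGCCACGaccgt
HSPA5: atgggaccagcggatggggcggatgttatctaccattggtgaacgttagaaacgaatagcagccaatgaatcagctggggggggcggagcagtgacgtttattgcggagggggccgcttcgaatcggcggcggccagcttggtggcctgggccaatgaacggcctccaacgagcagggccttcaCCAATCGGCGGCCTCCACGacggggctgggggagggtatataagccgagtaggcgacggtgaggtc
CRELD2: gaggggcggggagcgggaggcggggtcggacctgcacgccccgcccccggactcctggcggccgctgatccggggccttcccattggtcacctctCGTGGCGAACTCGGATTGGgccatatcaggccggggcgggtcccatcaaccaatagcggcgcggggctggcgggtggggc
HERPUD1: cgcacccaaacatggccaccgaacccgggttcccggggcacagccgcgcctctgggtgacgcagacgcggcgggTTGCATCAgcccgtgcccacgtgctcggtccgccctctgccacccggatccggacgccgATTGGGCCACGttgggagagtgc
ATF3: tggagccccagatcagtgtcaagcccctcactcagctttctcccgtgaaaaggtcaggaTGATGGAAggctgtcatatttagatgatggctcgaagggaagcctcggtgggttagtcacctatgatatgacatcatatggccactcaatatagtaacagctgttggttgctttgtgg
CHAC1: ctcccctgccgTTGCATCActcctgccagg
ASNS: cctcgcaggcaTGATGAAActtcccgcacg

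Library totals lay between 31134420 and 41882024 estimated counts, and the smallest count of a member in any library was 34. Of the total TPM (transcript abundance scaled by length and library total), mitochondrial genes took 0.526 to 1.56% in the attached libraries, 1.28 to 3.39% after 1 day and 0.968 to 2.68% after 7 days. The epithelial marker EPCAM stood at 204 to 1630.0 TPM and the lung marker NKX2-1 at 26.5 to 107 TPM, while the alveolar type 2 marker SFTPC was at no more than 0.245 TPM. The 6 epithelial markers summed to 5200.0 to 17000.0 TPM attached, 3810.0 to 13100.0 TPM after 1 day and 3580.0 to 19700.0 TPM after 7 days, and the 6 lung adenocarcinoma markers to 59.3 to 168, 82.9 to 306 and 133 to 847 TPM. Within these lists the keratin KRT7 was lower than attached in the 4 lines at both detached times and KRT18 at day 1, while the protease NAPSA was higher in the 4 lines at both (HCC4006 at 82.9, 221 and 705 TPM). The 7 leukocyte markers summed to 3.6 to 38.5 TPM attached, 33.9 to 87.4 TPM after 1 day and 18.9 to 120.0 TPM after 7 days. CD14 and CD68 carried these sums, with PTPRC at no more than 0.834 TPM and CD3E at no more than 0.14 TPM. The 6 fibroblast markers summed to 6.23 to 377, 6.04 to 183 and 4.38 to 46.0 TPM, with COL1A1 of NCI-H2228 (347, 150 and 39.2 TPM) the main part of the highest sums and DCN at no more than 0.448 TPM. The 4 endothelial markers summed to no more than 13.2 TPM. The part of these markers in the results was not tested.

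Within a line, changes were measured as differences of log2 CPM (counts scaled to a common library total after TMM). The median of all 17395 genes tested then lay between 0.00 and 0.04 in each line and contrast. On the TPM scale that median was shifted in NCI-H2009, by -0.17 at day 1, by 0.20 at day 7 and by 0.41 between them, and by no more than 0.08 in size in the other lines. TPM of NCI-H2009 are to be read against those shifts, but single members could differ between the scales by more. ERN1 of NCI-H2009 stood at 4.23 TPM attached and 8.46 TPM at day 7, beside a log2 CPM change of 0.15.

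In attached culture the arms already differed between lines. The level of an arm was taken as the median over its members of log2(TPM + 1) minus each member's own mean over the 12 libraries. The ATF4 arm stood at 1.08 in attached NCI-H2228, with 13 of 14 members above their own mean, against -0.89 in NCI-H2009, -0.58 in LC-2/ad and -0.15 in HCC4006. NCI-H2228 had the highest attached TPM for 12 of the 14 members. The ER arm lay closer together in attached culture, at 0.06, -0.22, -0.24 and -0.20, and the highest member values were spread over the 4 lines, with 10, 3, 4 and 5 of 22. In the plot of arm levels by library the ER arm of each line is higher at both detached times than attached. In HCC4006 it went only from -0.20 to -0.17 by day 7. In NCI-H2009 it went from 0.06 to 0.22. The median of the members' own changes there was 0.62 on the log2(TPM + 1) scale, beside 0.20 for all genes. Minus that median of all genes it was 0.42. The ATF4 arm of NCI-H2009 and that of NCI-H2228 run in opposite directions.

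**Figure D1:**
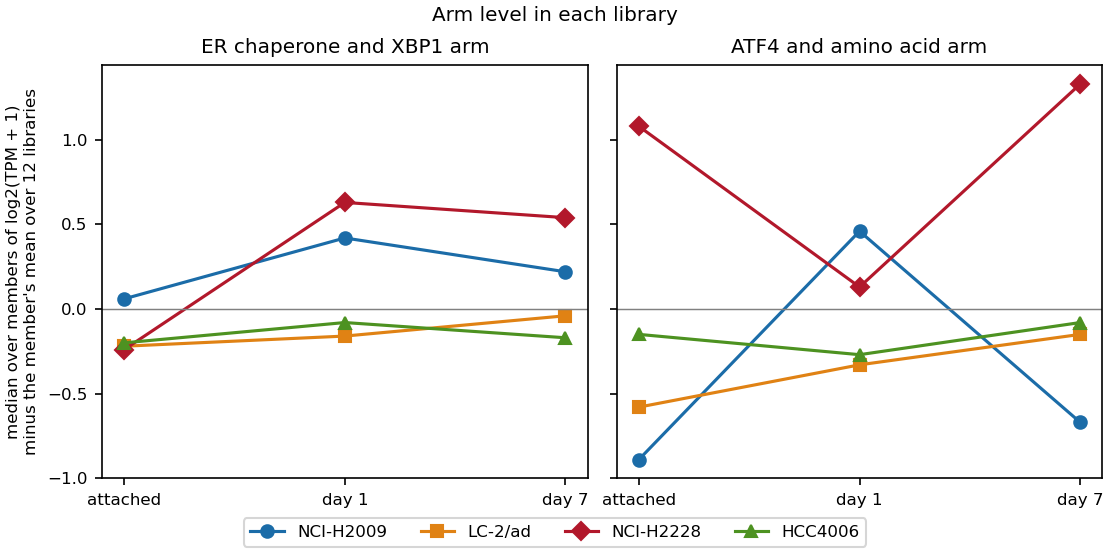
Level of each arm in the 12 libraries: the horizontal axis is the state, the vertical axis the median over members of log2(TPM + 1) minus the member's mean over 12 libraries, and each line joins the 3 libraries of a cell line. The ATF4 arm of NCI-H2228 goes from 1.08 attached to 0.13 after 1 day and 1.33 after 7 days, and that of NCI-H2009 from -0.89 to 0.46 and -0.67.

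The first comparison asks what differed after 1 day without attachment. No member was past an edgeR adjusted p of 0.05, beside 85 of 17395 genes (0.489%), of which 26 were higher. At an unadjusted p under 0.05, 8 of the 36 members were counted, all higher, beside 19.6% of all genes in either direction, 10.6% higher and 9.01% lower. These were XBP1, DNAJB9, CRELD2, CALR, PDIA4, HERPUD1 and SYVN1 of the ER arm and VLDLR of the ATF4 arm. DESeq2 called 3 members (DNAJB9, CRELD2 and HERPUD1) beside 11% of the genes it tested, and limma on log2(TPM + 1) called none beside 1.29%. Of the ER arm, 11 of 22 members were higher in each of the 4 lines, and of the ATF4 arm 1 of 14, VLDLR, beside 17.1% of all genes. No member was lower in each of the 4 lines, beside 16.5%. On the TPM scale minus the median of all genes, tried after the data were seen, the ER arm count was 8 of 22 beside 16.4%, without DNAJB11, PDIA4 and SYVN1. On TPM as deposited it was 7 of 22 beside 11.9%, with SEC61B missing as well.

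The second comparison set the libraries of day 7 against the same attached libraries, so both comparisons share their control. No member was past the threshold in edgeR, beside 18 genes (0.103%), of which 1 was higher (0.00575%). At an unadjusted p under 0.05 there were 4 members, ATF6, XBP1, DNAJB9 and SEL1L, all higher, beside 15.7% of all genes, 8.47% higher and 7.19% lower. DESeq2 called DNAJB9 alone, beside 6.95%, and limma called none, beside 0.0747%. Higher in each of the 4 lines were 12 of 22 ER arm members and 1 of 14 ATF4 arm members, ATF3, beside 14.6% of all genes. Some of these changes were close to none, such as CALR at 0.05 to 0.12 and CRELD2 at 0.01 in HCC4006. On TPM as deposited the ER arm count was 10 of 22 beside 12.9%, and on TPM minus the median of all genes 12 of 22 beside 13.2%.

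Among the sensors and factors, XBP1 (chromosome 22, 28794555 to 28800597, minus strand, GRCh38) makes the mRNA that IRE1 splices. In attached culture XBP1 stood at 184, 164, 254 and 294 TPM, after 1 day at 443, 199, 377 and 365 TPM, and after 7 days at 539, 255, 287 and 635 TPM. Every line was higher at both detached times than attached, NCI-H2009 and HCC4006 the most after 7 days, but the states overlapped across lines. The shared log2 fold change, here and below, is the state effect that edgeR fits over the 4 lines, whose own directions may differ. For XBP1 it was 0.76 ± 0.26 (SE, n = 4 lines) at day 1, edgeR adjusted p = 0.158, and 0.82 ± 0.26 at day 7, edgeR adjusted p = 0.188. Without the libraries of NCI-H2009 the day 1 change was 0.48. State took 39.6% of the variance of XBP1 and cell line 37.0%.

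ERN1 encodes IRE1 itself. Its attached values were 4.23, 8.09, 21.7 and 2.51 TPM, with 12.7, 11.2, 14.6 and 3.0 TPM after 1 day and 8.46, 12.9, 29.2 and 4.21 TPM after 7 days. NCI-H2228 had the highest value in each state and was the only line with less ERN1 after 1 day (log2 change -0.26) than attached. The day 7 libraries were above the attached ones in each line, by 0.15, 0.54, 0.35 and 0.73 on the log2 CPM scale, with a shared change of 0.46 ± 0.30 and an edgeR adjusted p of 0.484.

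ATF6, the factor that is cut in the Golgi, was at 7.48, 13.1, 23.7 and 10.8 TPM attached, 5.55, 12.1, 24.1 and 10.3 TPM after 1 day and 14.3, 17.0, 32.6 and 11.8 TPM after 7 days. NCI-H2228 was the highest line in each state, NCI-H2009 was the lowest attached and after 1 day and HCC4006 after 7 days, and cell line took 89.8% of the variance of ATF6. The shared change was -0.01 ± 0.14 at day 1 and 0.42 ± 0.14 at day 7, with an edgeR adjusted p of 0.217 for the latter and 4 of 4 lines higher. Its relative CREB3L1, a membrane-bound factor linked to secretory cargo, ranged from 1.29 TPM in LC-2/ad to 174 TPM in HCC4006, and cell line took 97.7% of its variance.

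HSPA5 was the most abundant member on average after 7 days. Its attached levels were 839, 603, 647 and 415 TPM, against 1159.5, 504, 1138 and 486 TPM after 1 day and 1347, 735, 1693 and 444 TPM after 7 days. NCI-H2228 and NCI-H2009 held the 4 highest detached values, HCC4006 stayed between 415 and 486 TPM, LC-2/ad was lower after 1 day than attached, and the states overlapped. The shared change was 0.45 ± 0.26 at day 1 (edgeR adjusted p = 0.369) and 0.55 ± 0.26 at day 7 (edgeR adjusted p = 0.343).

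DNAJB9, a J-domain partner of HSPA5 that also restrains IRE1, had the smallest p of all members at day 1 and at day 7 against attached. The gene lies on chromosome 7, 108569867 to 108574850, plus strand. Attached libraries held 19.7, 16.6, 16.2 and 25.9 TPM, day 1 libraries 42.5, 28.5, 63.6 and 34.4 TPM, and day 7 libraries 39.5, 24.7, 55.3 and 34.1 TPM. DNAJB9 was the one member of 36 whose day 1 values all lay above the attached ones, beside 0.949% of all genes, and no member had all day 1 values below the attached ones, beside 2.9%. For day 7 against attached no member was free of overlap, beside 1.09% of all genes higher and 1.36% lower, nor for day 7 against day 1, beside 1.13% and 0.178%. At day 7 the lowest value, LC-2/ad at 24.7 TPM, lay below attached HCC4006. The mean was 19.6 ± 4.5 TPM (SD, n = 4) attached, 42.2 ± 15.3 after 1 day and 38.4 ± 12.8 after 7 days. Its log2 fold change was 1.24 ± 0.26 at day 1, edgeR adjusted p = 0.069, and 0.88 ± 0.26 at day 7, edgeR adjusted p = 0.165. The day 1 call depended on the tool and the genes tested: the adjusted p was 0.000604 in DESeq2, 0.0234 in edgeR with no filter on low counts (0.782% of genes past the threshold) and 0.0493 in edgeR with a filter on TPM (1.49%). State took 62.8% of the variance of DNAJB9.

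Other helpers of HSPA5 were nearer to their attached levels. CRELD2, a secreted ER protein of the ATF6 program, stood at 93.1, 60.6, 26.1 and 59.7 TPM attached, 154, 69.9, 58.7 and 64.0 TPM after 1 day and 149.6, 71.7, 28.1 and 57.5 TPM after 7 days. Its day 1 change was 0.74 ± 0.23 (edgeR adjusted p = 0.131, DESeq2 adjusted p = 0.0375), with 1.09 in NCI-H2009 and 1.36 in NCI-H2228 against 0.22 and 0.19 in the other lines. The opposite-strand gene ALG12 overlaps CRELD2 and averaged 16.5 TPM, and whether strand was used in counting is not given in the sources used here. MANF, an ER-resident secreted factor, was at 151, 98.2, 41.4 and 45.9 TPM attached, 231, 102, 89.4 and 51.7 TPM after 1 day and 74.2, 61.3, 57.9 and 48.9 TPM after 7 days. MANF was higher in the 4 lines at day 1 and then lower in the 4 lines at day 7 than at day 1, with NCI-H2009 spanning the widest range.

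Among the remaining chaperones and isomerases the share of variance taken by cell line ran from 23.7% for HSP90B1 to 91.9% for SDF2L1. It was 35.9% for DNAJC3 and 43.6% for CALR. HSP90B1, the ER form of HSP90, ranged from 372 to 1259 TPM and was the chaperone with the most variance outside line and state (65.9%), with 924, 372 and 1259 TPM in NCI-H2009 over the 3 states but 601, 1215 and 1004 TPM in NCI-H2228. HYOU1, a large HSP70 relative, stayed between 19.1 and 48.0 TPM except for 108 TPM in NCI-H2228 after 7 days. DNAJB11 ranged from 88.6 to 236 TPM, DNAJC3, an inhibitor of PERK, from 12.4 to 42.6 TPM, and SDF2L1 from 17.7 to 255 TPM. In NCI-H2228 each of these 5 was higher after 1 day, by 0.64 to 1.22. The lectin chaperone CALR was higher in the 4 lines at day 1, by 0.97, 0.06, 1.33 and 0.24, and ranged from 122 to 335 TPM. Its membrane-bound partner CANX ranged from 144 to 775 TPM and was at least 2-fold higher at day 1 in NCI-H2228 alone. The disulfide isomerases PDIA4 (250.1 to 1290.3 TPM) and PDIA6 (140.2 to 558 TPM) were higher at day 1 by 1.29 and 0.99 in NCI-H2228 and by 0.12 and 0.18 in HCC4006. In NCI-H2009 they were at 1.26 and 0.58, and in LC-2/ad at 0.0 and -0.23.

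Among the degradation factors, HERPUD1 organises the ubiquitin ligase complex that clears misfolded ER proteins, and lies on chromosome 16, 56932142 to 56944864, plus strand. Attached values were 48.3, 76.1, 226 and 136 TPM, against 229, 134, 296 and 178 TPM after 1 day and 145, 131, 361 and 176 TPM after 7 days. Each line was above its attached value at both times, NCI-H2009 by 2.65 on the log2 CPM scale at day 1 and the other lines by 0.44 to 0.72, and the states overlapped. The shared change was 1.10 ± 0.34 at day 1 (edgeR adjusted p = 0.132, DESeq2 adjusted p = 0.025) and 0.72 ± 0.33 at day 7 (edgeR adjusted p = 0.327). Without the 3 libraries of NCI-H2009 the day 1 change was 0.56.

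SEL1L, the scaffold of the same ligase, was at 8.09, 20.8, 37.1 and 53.9 TPM attached, 5.62, 17.8, 45.7 and 65.1 TPM after 1 day and 16.3, 24.5, 68.4 and 51.5 TPM after 7 days. NCI-H2009 had the lowest level in each state, and cell line took 93.3% of the variance. Its day 7 change was 0.49 ± 0.19 (edgeR adjusted p = 0.255), higher in the 4 lines on the log2 CPM scale, although HCC4006 was slightly lower in TPM as deposited. SYVN1, the ligase itself, ranged from 13.6 to 25.4 TPM and shares bases with FAU on its own strand (mean 714 TPM) and MRPL49 on the other (108 TPM), so its counts are uncertain. EDEM1, which marks misfolded glycoproteins for removal, ranged from 3.11 to 23.3 TPM and SEC61B, a subunit of the protein-conducting channel, from 336 to 880.2 TPM.

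**Figure D2:**
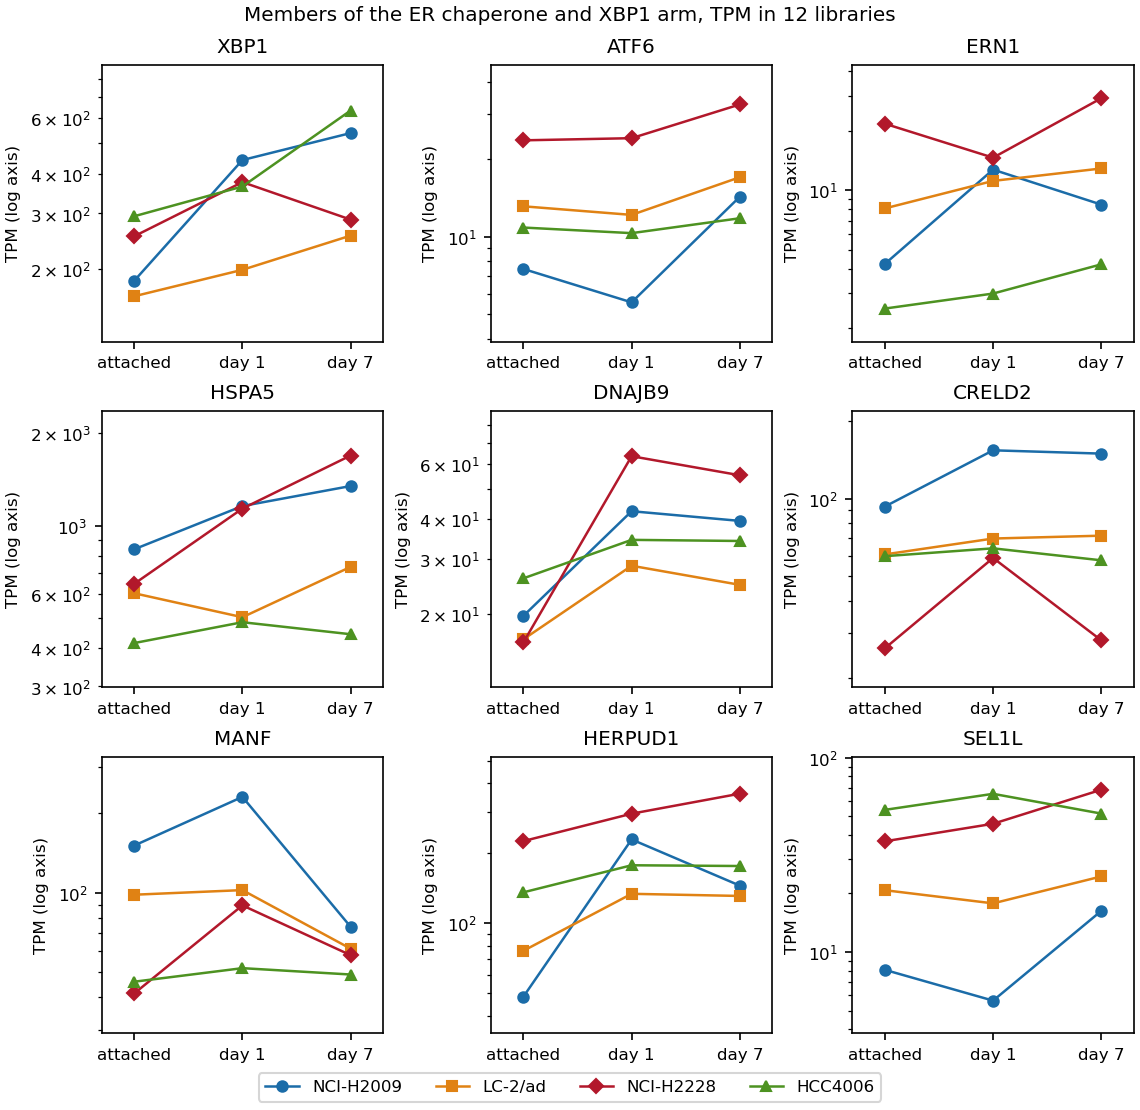
TPM (vertical log axis, own scale in each panel) of 9 ER arm members in attached, day 1 and day 7 libraries, with a symbol and line for each cell line. DNAJB9 is the panel in which the 4 day 1 points (28.5 to 63.6 TPM) all lie above the 4 attached points (16.2 to 25.9 TPM).

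In the ATF4 arm, ATF4 mRNA itself was 1.10 higher on the log2 CPM scale in NCI-H2009 after 1 day, while NCI-H2228 was at -0.62. It stood at 128, 139.7, 267 and 106 TPM attached, 207, 146, 153 and 102 TPM after 1 day and 92.7, 134, 241 and 119 TPM after 7 days. NCI-H2228 held the highest attached and day 7 values and NCI-H2009 the highest day 1 value, and the shared changes were 0.23 ± 0.33 and -0.10 ± 0.32 at day 1 and day 7. DDIT3, a factor tied to cell death under lasting stress, lies on chromosome 12, 57516588 to 57521737, minus strand. DDIT3 was at 39.3, 36.6, 438 and 48.4 TPM attached, 408, 73.1, 196 and 68.8 TPM after 1 day and 51.2, 96.0, 582 and 39.9 TPM after 7 days. NCI-H2228 was far above the other lines attached and at day 7, and NCI-H2009 was the highest at day 1 only, with a change of 3.74 from attached and -3.63 back to day 7. The shared change at day 1, 1.33 ± 0.77 with an edgeR adjusted p of 0.365, was 0.24 without the libraries of NCI-H2009. MARS1 on the opposite strand overlaps DDIT3 and averaged 197 TPM, so part of these counts cannot be assigned with certainty.

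ATF3, a factor of the same family that ATF4 induces, was among the lowest members. It was at 0.93, 1.62, 9.24 and 4.05 TPM attached, 5.23, 2.19, 5.80 and 5.54 TPM after 1 day and 2.98, 6.15, 22.4 and 4.44 TPM after 7 days. ATF3 was the one ATF4 arm member that was higher in the 4 lines at day 7 (1.11 ± 0.56, edgeR adjusted p = 0.365). CEBPB, a C/EBP factor that pairs with ATF4, was at 15.2, 72.8, 98.6 and 18.9 TPM attached, 48.3, 73.5, 95.1 and 17.2 TPM after 1 day and 30.4, 72.8, 141 and 18.9 TPM after 7 days. Only NCI-H2009 differed by 2-fold or more at day 1 (1.98), and the shared change went from 0.54 ± 0.33 to 0.03 without the libraries of that line.

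TRIB3, a pseudokinase that damps ATF4 and DDIT3, lies on chromosome 20, 362835 to 397559, plus strand. Its levels were 27.2, 68.7, 752 and 209.6 TPM attached, 72.2, 76.3, 246 and 206 TPM after 1 day and 20.7, 85.0, 778 and 197 TPM after 7 days. The order of lines was the same in each state, NCI-H2228, HCC4006, LC-2/ad and NCI-H2009 from the highest, and cell line took 85.1% of the variance. The day 1 difference was 1.79 in NCI-H2009 and -1.46 in NCI-H2228, and the shared change was 0.33 ± 0.51. CHAC1, which breaks down glutathione, was at 7.25, 3.24, 56.7 and 15.8 TPM attached, 30.9, 16.8, 20.4 and 26.7 TPM after 1 day and 13.9, 12.8, 41.9 and 19.7 TPM after 7 days. Attached values spanned 3.24 to 56.7 TPM and day 1 values 16.8 to 30.9 TPM, as 3 lines were higher (2.37, 2.11 and 0.81) and NCI-H2228 lower (-1.31). Its shared change was 1.04 ± 0.55 at day 1, edgeR adjusted p = 0.324, with 0.47 without the libraries of NCI-H2009 and 1.77 without those of NCI-H2228. PPP1R15A, which brings the phosphatase that reverses eIF2 phosphorylation, ranged from 20.9 to 126 TPM, with day 1 differences of 2.01 in NCI-H2009 and -1.49 in NCI-H2228.

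DDIT4, an inhibitor of mTORC1, was at 73.6, 384, 515 and 274 TPM attached, 526, 453, 295 and 357 TPM after 1 day and 79.7, 247, 345 and 390.4 TPM after 7 days. NCI-H2009 went from the lowest attached line to the highest at day 1 and back to the lowest, with changes of 3.21 and -3.39. The antisense RNA DDIT4-AS1 overlaps it and averaged 13.8 TPM. SESN2, another mTORC1 inhibitor that senses leucine, ranged from 7.85 to 68.3 TPM and had the lowest day 1 difference of the arm in NCI-H2228 (-2.33).

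ASNS makes asparagine and is a classic ATF4 target, on chromosome 7, 97851677 to 97872542, minus strand. ASNS stood at 38.9, 83.3, 99.5 and 99.6 TPM attached, 89.8, 83.6, 30.2 and 108 TPM after 1 day and 19.7, 83.2, 186 and 119 TPM after 7 days. LC-2/ad stayed between 83.2 and 83.6 TPM and HCC4006 between 99.6 and 119 TPM, while NCI-H2009 and NCI-H2228 differed from their previous state in opposite directions in both intervals. The rest of variance, outside line and state, was 60.5% for ASNS and 73.7% for PHGDH, which starts serine synthesis and ranged from 58.9 to 263 TPM. PSAT1, the next serine enzyme, ranged from 66.2 to 1040.1 TPM, both extremes after 7 days, in NCI-H2009 and NCI-H2228. SHMT2, which makes glycine from serine in mitochondria, ranged from 70.8 to 298 TPM. VLDLR, an ATF4 target at the cell surface, was at 3.95, 0.41, 3.19 and 13.4 TPM attached, 6.75, 0.76, 4.07 and 15.7 TPM after 1 day and 7.00, 0.94, 5.35 and 11.1 TPM after 7 days. VLDLR was higher in the 4 lines at day 1, by 0.32 to 1.19, in the order of lines HCC4006, NCI-H2228, NCI-H2009 and LC-2/ad from the smallest, with a shared change of 0.72 ± 0.27 and an edgeR adjusted p of 0.187.

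**Figure D3:**
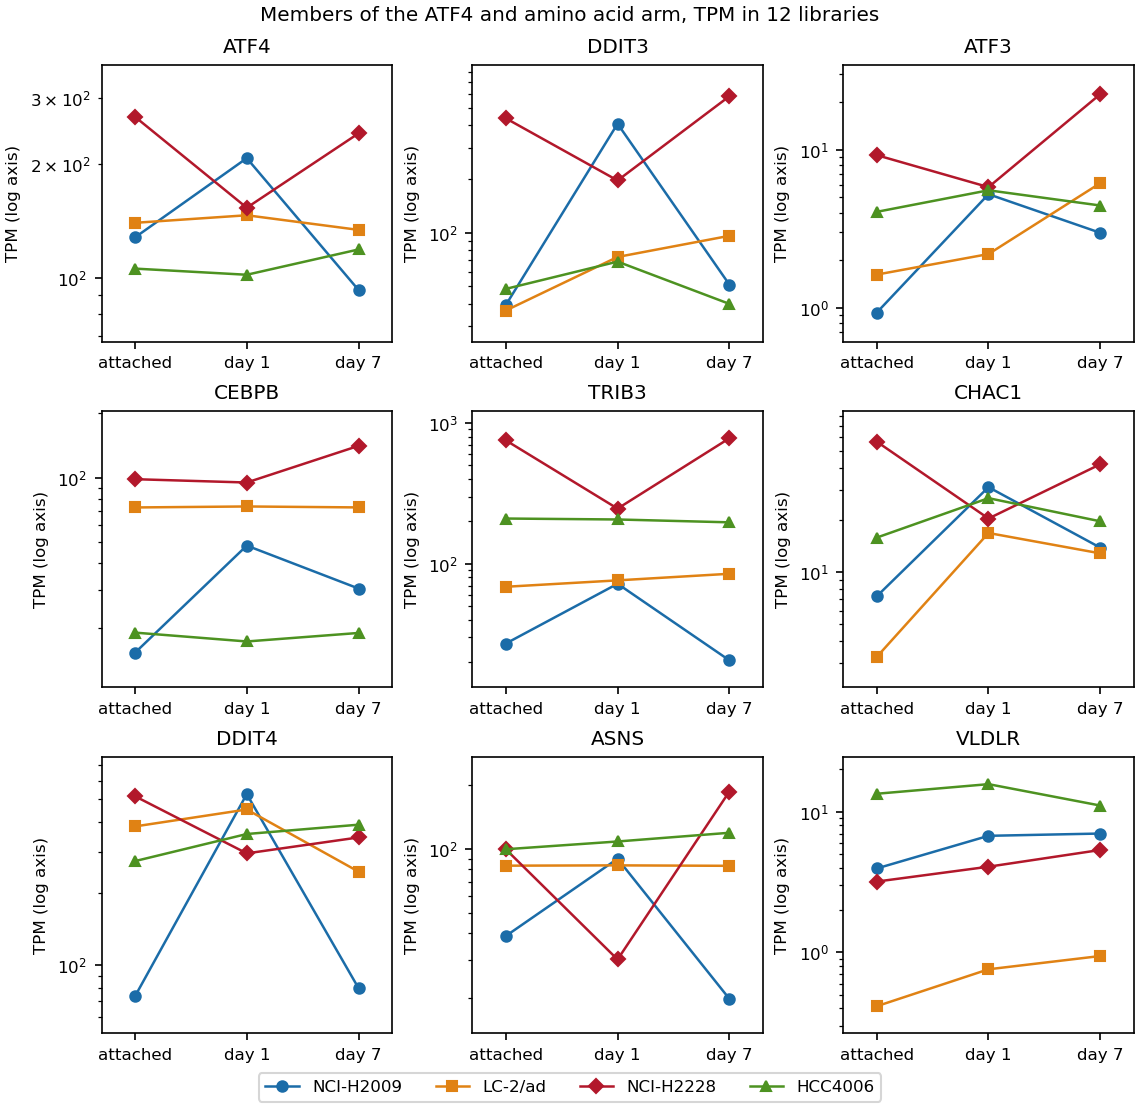
TPM (vertical log axis, own scale in each panel) of 9 ATF4 arm members in attached, day 1 and day 7 libraries, with a symbol and line for each cell line. In most panels NCI-H2009 peaks at day 1 (DDIT3 at 408 TPM) where NCI-H2228 is lower than attached and at day 7 (DDIT3 at 196 TPM).

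Set side by side, the arms had the same direction in some lines and opposite directions in 1. At day 1 the median change of the ER arm, in the usual order of lines, was 0.70, 0.06, 0.97 and 0.19. That of the ATF4 arm was 1.89, 0.09, -0.98 and 0.17. In NCI-H2009 both arms were higher and the ATF4 arm by more, in NCI-H2228 the ER arm was higher while the ATF4 arm was lower, and in LC-2/ad and HCC4006 both medians lay between 0.06 and 0.19. In NCI-H2009, 12 of 14 ATF4 arm members were at least 2-fold higher, beside 18.3% of all genes, and 8 of 22 ER arm members. No member was at least 2-fold lower there on the log2 CPM scale, beside 20.3%. HSP90B1 came nearest at -0.94, and in TPM as deposited it went from 924 to 372, more than 2-fold lower. In NCI-H2228, 10 of 22 ER arm members were at least 2-fold higher, beside 14.8% of all genes, and 0 of 14 ATF4 arm members, of which 7 were at least 2-fold lower, beside 10.3%. In LC-2/ad 2 ATF4 arm members, CHAC1 and VLDLR, were at least 2-fold higher, beside 8.91%, and in HCC4006 no member was 2-fold higher or lower, beside 7.0% and 6.85%. On TPM minus the median of all genes the ER arm of NCI-H2009 was at 0.32 in place of 0.70, and the ATF4 arm at 1.65, so the size of the former depended on the scale. Those of NCI-H2228 were 0.88 and -0.95. The share of mitochondrial genes in TPM was 0.526% attached and 1.76% after 1 day in NCI-H2228, and 1.03% and 1.28% in NCI-H2009, and its part in these changes was not tested.

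The ER arm median minus the ATF4 arm median at day 1 was -1.18, -0.03, 1.95 and 0.02 in the usual order. Their mean, 0.19, was smaller than their SD over lines, 1.3, and without NCI-H2228 it was -0.40. No direction of the arms against each other was therefore shared by the lines at day 1. At day 7 against attached the difference was 0.32, 0.09, 0.24 and -0.03, with a mean of 0.16 ± 0.15 (SD, n = 4). The arm medians were then 0.28, 0.22, 0.63 and 0.16 for the ER arm and -0.03, 0.13, 0.39 and 0.19 for the ATF4 arm. In NCI-H2228 21 of 22 ER arm members were higher than attached at day 1 and at day 7, beside 52.0% and 52.1% of all genes. In HCC4006 22 and 17 were, beside 49.0% and 48.7%. In NCI-H2009 16 were at each time, beside 48.8% and 53.5%, and in LC-2/ad 16 were, beside 52.1% and 49.3%. The ATF4 arm of NCI-H2009 had 7 members higher and 7 lower at day 7, from -1.90 for PSAT1 to 1.36 for ATF3. In LC-2/ad, whose arm median was 0.13, 5 of 14 ATF4 arm members (DDIT3, ATF3, PPP1R15A, CHAC1 and VLDLR) were at least 2-fold higher than attached at day 7, beside 10.2% of all genes.

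**Figure D4:**
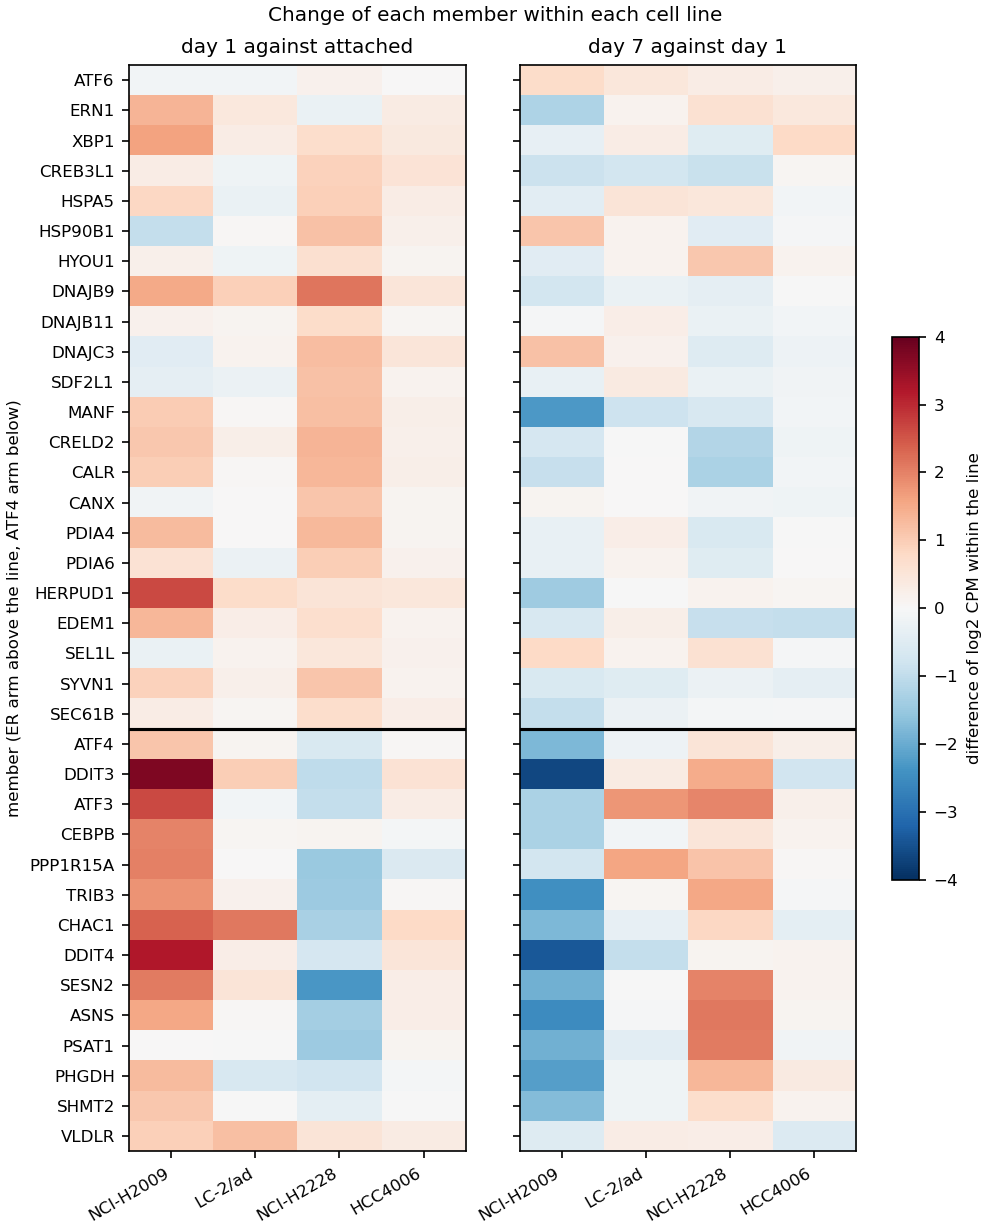
Difference of log2 CPM within each cell line for the 36 members (rows, the ER arm above the black line), day 1 against attached on the left and day 7 against day 1 on the right, red for higher and blue for lower. Below the line the columns of NCI-H2009 and NCI-H2228 have opposite colours in most rows of both panels, with arm medians of 1.89 and -0.98 on the left and -1.86 and 1.23 on the right.

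The third comparison, day 7 against day 1, asks what differed between the detached times. It uses the day 1 libraries a second time, so a high or low day 1 library enters both this and the first comparison with opposite sign. No member and no gene was past the threshold in edgeR (0.0%), and DESeq2 called 370 genes (1.11%) but no member. At an unadjusted p under 0.05 were ATF6, higher, and CREB3L1, MANF, CRELD2 and CALR, lower, 5 of 36 beside 9.78% of all genes, 4.85% higher and 4.93% lower. ATF6 was the only member higher in the 4 lines (0.74, 0.44, 0.31 and 0.20), beside 9.61%. DNAJB9, MANF, CRELD2, SYVN1 and SEC61B were lower in the 4 lines, 5 of 22 beside 8.69%, but 3 of 22 on TPM as deposited, beside 4.81%, and 3 of 22 on TPM minus the median of all genes, beside 9.17%. MANF had a shared change of -0.94 ± 0.34 (edgeR adjusted p = 0.487), with -2.31 in NCI-H2009 and -0.12 in HCC4006, and was at -0.52 without the libraries of NCI-H2009.

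In NCI-H2009 and NCI-H2228 the ATF4 arm went the other way after day 1. Its median from day 1 to day 7 was -1.86 in NCI-H2009, with 14 of 14 members lower and 12 at least 2-fold lower (14.8% of all genes), and 1.23 in NCI-H2228, with 14 of 14 higher and 8 at least 2-fold higher (7.47%). In LC-2/ad and HCC4006 it was -0.08 and 0.12. The ER arm medians were -0.43, 0.13, -0.32 and -0.06, and the difference between the arms averaged -0.02 with an SD of 1.23. DDIT4 had the smallest p of the ATF4 arm, at -1.14 ± 0.62 (edgeR adjusted p = 0.56), and CHAC1 followed at -0.60 ± 0.52. Without the libraries of NCI-H2009 they were at -0.22 and -0.10, and without those of NCI-H2228 DDIT4 was at -1.53.

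Over the 3 states, members of the ATF4 arm had more of their variance outside line and state than members of the ER arm. The share of variance of log2 CPM left after line and state had a median of 36% over ATF4 arm members, 16.9% over ER arm members and 17.1% over all genes. State took 3.7%, 12.3% and 10.5%, and cell line 52.0%, 70.5% and 68.0%. These shares come from 12 libraries of 4 lines and carry no test.

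**Figure D5:**
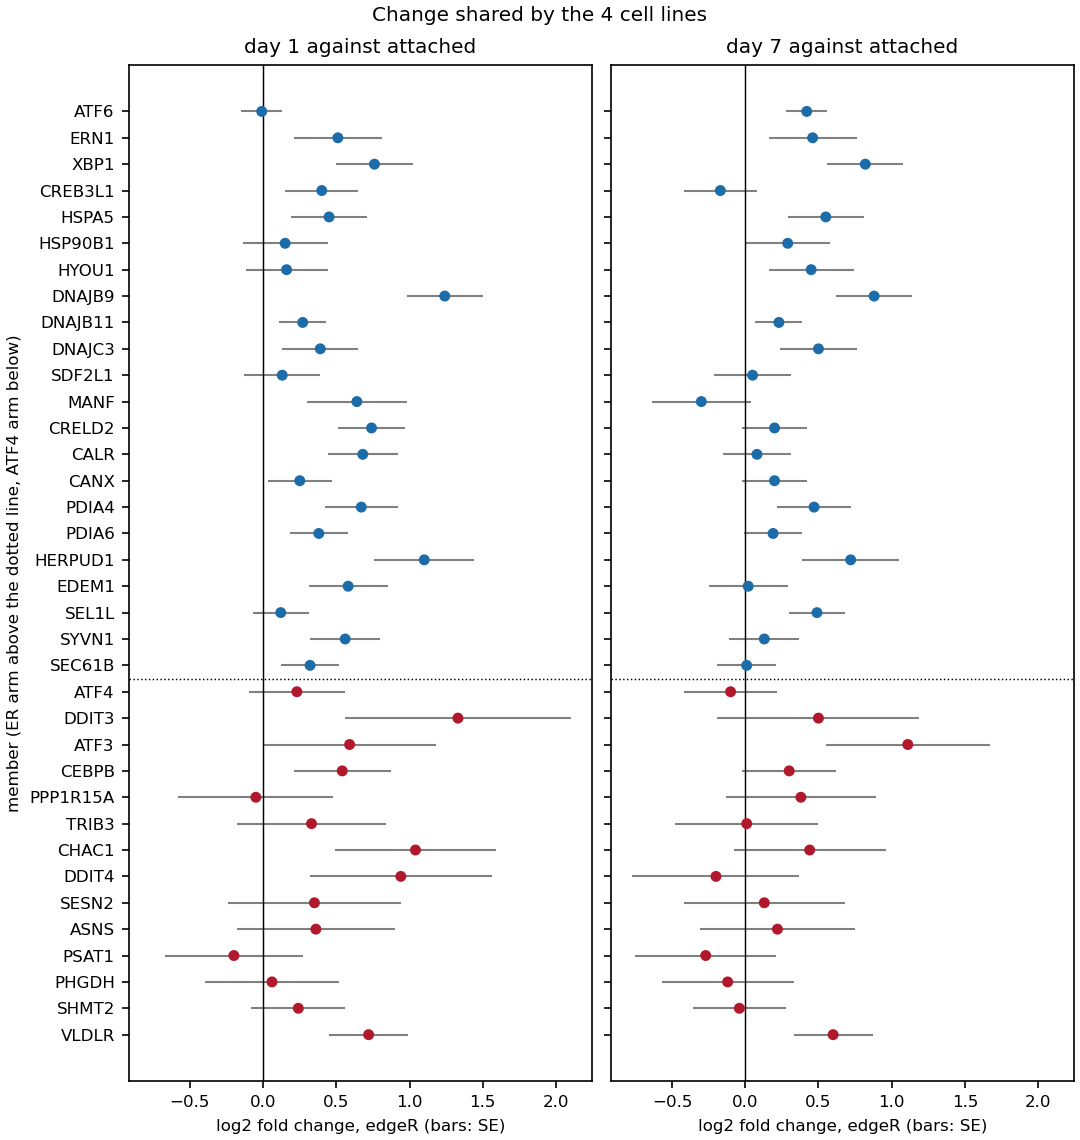
Log2 fold change fitted over the 4 lines by edgeR (points) with its SE (bars) for the 36 members at day 1 and day 7 against attached, ER arm above the dotted line. Single lines may differ from it in direction. DNAJB9 at 1.24 ± 0.26 at day 1 has a narrow bar, while DDIT3 at 1.33 ± 0.77 has a wide one, and no member was past an adjusted p of 0.05.

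Other genes of the same pathways were counted in lists that hold none of the 36 members. None of these genes was past the edgeR threshold in any contrast. At day 1, 9 of 18 other ER folding and oxidation genes had an unadjusted p under 0.05, all higher, beside 10.6% of all genes, with line medians of 0.75, 0.15, 0.91 and 0.23. Smallest in p were SIL1, which swaps the nucleotide of HSPA5 (0.94 ± 0.21, edgeR adjusted p = 0.0763), and the prolyl isomerase FKBP2 (0.84 ± 0.22, edgeR adjusted p = 0.0951). SIL1 stood at 29.9, 41.6, 100.0 and 47.4 TPM attached and 68.5, 63.5, 195 and 60.3 TPM after 1 day. Of the other ER degradation genes 6 of 16 were higher at that level, led by OS9 (0.96 ± 0.20, edgeR adjusted p = 0.0681) and ERLEC1 (0.72 ± 0.20), lectins that hand misfolded glycoproteins to the SEL1L ligase. Of the other translocon and vesicle coat genes 6 of 20 were, led by the coat subunit SEC24D (0.95 ± 0.19, edgeR adjusted p = 0.0655) and the channel-associated SSR4 (0.67 ± 0.16). SIL1, FKBP2, OS9, ERLEC1, SEC24D and SSR4 were each higher in the 4 lines. At day 7 the counts were 4 of 18, 4 of 16 and 2 of 20 higher and 1, 0 and 0 lower, beside 8.47% of all genes higher. FICD, which modifies HSPA5 (0.80 ± 0.21), ERO1B, an oxidase that feeds disulfides to the isomerases (1.05 ± 0.37), OS9 (0.68 ± 0.20), EDEM3 (0.56 ± 0.18), SRPRA (0.41 ± 0.15) and SSR4 (0.39 ± 0.16) led them.

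Of 14 other sensors, eIF2 kinases and proteases, 1 was higher and 1 lower at an unadjusted p under 0.05 at day 1, beside 10.6% and 9.01% of all genes. EIF2S1, the eIF2 subunit that is phosphorylated, was at 314, 300, 698 and 349 TPM attached and 99.8, 241, 293 and 285 TPM after 1 day (-0.76 ± 0.23, edgeR adjusted p = 0.132), lower in the 4 lines. BLOC1S1, an mRNA that IRE1 is known to cut, was higher (0.62 ± 0.26). At day 7 ERN2, a gut and airway relative of ERN1, had the smallest p (1.02 ± 0.45), but it was at 109.6 to 169 TPM in HCC4006 while the other lines did not exceed 3.50 TPM, and EIF2AK4, the kinase that senses uncharged tRNA, followed at -0.37 ± 0.17.

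The lists of amino acid genes and other ATF4 targets were described by line. At day 1 the median of 11 other amino acid synthesis and folate cycle genes was 0.54, 0.12, -0.47 and 0.21, that of 10 amino acid transporters 0.84, 0.31, -0.50 and -0.03, and that of 15 other ATF4 targets and partners 0.94, 0.35, -0.26 and 0.10. From day 1 to day 7 the medians in NCI-H2009 were -1.04, -0.86 and -0.84 and those in NCI-H2228 0.72, 0.74 and 0.43. In the medians of these lists NCI-H2009 was the highest line and NCI-H2228 the lowest at day 1, with the reverse afterwards. Single genes were mixed: in NCI-H2009 at day 1 1 of 11, 4 of 10 and 6 of 15 were at least 2-fold higher and 0, 2 and 0 lower, beside 18.3% and 20.3% of all genes. In NCI-H2228 0, 0 and 3 were at least 2-fold higher and 3, 3 and 4 lower, beside 14.8% and 10.3%. CTH, which makes cysteine, was at 9.65, 20.9, 34.3 and 9.48 TPM attached and 63.4, 22.6, 22.9 and 17.2 TPM after 1 day (1.06 ± 0.56, edgeR adjusted p = 0.319), and MTHFD1L was lower in the 4 lines (-0.63 ± 0.30). MTHFD1L and MTHFD2, of the mitochondrial folate cycle, led the list at day 7 with -0.61 ± 0.30 and -0.46 ± 0.34. The glycine transporter SLC6A9 was higher in the 4 lines on the log2 CPM scale at day 1 (0.91 ± 0.29, edgeR adjusted p = 0.137) and at day 7 (1.29 ± 0.29, edgeR adjusted p = 0.116), from 5.04, 2.47, 12.3 and 4.27 TPM attached to 18.5, 3.0, 28.8 and 11.7 TPM after 7 days. SLC43A1 (1.02 ± 0.52 at day 1) was listed at 0 in attached NCI-H2009, and SLC1A4 had 0.68 ± 0.30 at day 7. KLHL24, a stress-induced ubiquitin ligase adaptor, was at 3.15, 4.91, 17.8 and 12.2 TPM attached, 33.7, 28.8, 104 and 12.7 TPM after 1 day and 71.8, 26.4, 46.4 and 24.2 TPM after 7 days (1.92 ± 0.51 and 1.90 ± 0.50, edgeR adjusted p = 0.0966 and 0.147). Unlike the ATF4 arm, KLHL24 was higher at day 1 in NCI-H2228 as well. BBC3, a death-promoting BCL2 relative, had 1.38 ± 0.52 at day 1, and CCPG1, an ER autophagy receptor, 1.60 ± 0.47 at day 7.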

How the data were processed

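RNA-seq of 12 libraries, 4 lung adenocarcinoma lines in 3 states with 1 library each, was read from a deposited gene table. Per the file headers the authors give an estimated count and a TPM value per gene and library. Values that are not whole (31.5% of estimated counts above 0, tolerance 0.001) mark them as estimates, so they were rounded. RNA was purified on columns and made into cDNA with a SMART-Seq kit, per the labels' protocols. The build is GRCh38, per the submitters' processing notes. Which aligner and counter were used, and whether strand was, is not stated.

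Genes passing filterByExpr by state (17395) were scaled by TMM and fitted with edgeR 4.0.16, robust quasi-likelihood, with state and cell line as terms (6 residual degrees of freedom, biological coefficient of variation 38.7%). P-values were adjusted by Benjamini-Hochberg over all genes, with a threshold of 0.05. The SE is the log2 fold change divided by the root of its F value, so it restates the test. For changes within a line, log2 CPM values (prior count 2) were subtracted, and shares of variance come from the same values. Line is a block because the 3 libraries of a line are the same cells. After state means were removed, libraries of 1 line correlated at 0.72 to 0.82 and those of different lines at -0.38 to -0.09. Removing the means by itself pushes the latter values to the negative side, so they are no ground for the block. Whether cultures were separate is not labelled, so p-values measure only the spread of these libraries left after state and cell line. That spread holds any disagreement between lines in their changes. DESeq2 1.42.0, limma 3.58.1 on log2(TPM + 1), other filters, other scalings and fits without 1 library or line were alternatives. Fits were tested on simulated data in which a changed gene moved alike in every line. That setting does not cover lines that disagree, as in the ATF4 arm. The members and all gene lists were chosen with earlier results of these data known. Members whose library values are printed, and the genes named from other lists, follow a written rule: the 2 smallest p-values per list and contrast for the latter. Protein sequences were not used here.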

Additional observations from a re-analysis of the deposited data

Results flagged for a closer look

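DDIT3 in attached NCI-H2228 stood at 438 TPM, far from the other attached lines at 36.6 to 48.4 TPM. ATF3 after 1 day stood at 2.19 TPM in LC-2/ad, against 5.23 to 5.80 TPM in the other lines. Both gaps, as a share of the range of 4 lines on the log2(TPM + 1) scale, were above Dixon's 95% critical value. They are 2 of 54 groups of 4 libraries checked on that scale, and chance marks about 1 group in 20. On TPM as deposited 5 of 54 groups were above it, the others being DDIT3 and ATF3 at day 7, with NCI-H2228 at 582 and 22.4 TPM, and CRELD2 at day 1, with NCI-H2009 at 154 TPM.

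At day 1 against attached the median of the ATF4 arm was 1.89 in NCI-H2009, with 14 of 14 members higher, and -0.98 in NCI-H2228, with 12 of 14 lower. At day 7 against day 1 it was 1.23 in NCI-H2228 and -1.86 in NCI-H2009, with 14 of 14 members in each direction. Each line has 1 library per state, so the difference between lines was not tested, and both contrasts share the day 1 libraries. Lines were marked where medians passed 0.5 in opposite directions.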

How the results depend on the processing

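Library totals were 31134420 to 41882024 estimated counts, and each line had 1 library per state. Genes past the threshold at day 1 (85) numbered 2 with DESeq2 size factors, 265 with no filter on low counts, 167 with a TPM filter, 0 with only the 2 states, 225 with limma, 1704 with DESeq2 and 0 to 6 with 1 library or line left out, 0 for each line. At day 7 (18) the numbers were 6, 114, 31, 1, 13 and 1169 in that order, and 0 to 69, the highest without the day 1 library of NCI-H2009. Between day 7 and day 1 (0) they were 6 with no filter and 370 with DESeq2. With no replicate block, that is without pairing the libraries of a line, 0 genes and 0 members passed in each contrast. Members past the threshold (0) numbered 1 at day 1 with no filter and with the TPM filter (DNAJB9, adjusted p = 0.0234 and 0.0493) and 3 with DESeq2, and 1 at day 7 with DESeq2.

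The arm difference at day 1 (0.19) ranged from -0.40, without NCI-H2228, to 0.65. At day 7 (0.16) it was 0.35 with shorter core lists and 0.10 to 0.22 with a line left out. Between day 7 and day 1 (-0.02) it was 0.00 from means over members, 0.49 without NCI-H2228, 0.03 without HCC4006 and -0.50 at the lowest. On TPM scales, chosen after seeing the data, ER arm members higher in the 4 lines at day 1 (11) numbered 7 and, between day 7 and day 1 (1), 2, and those lower (5) numbered 3 both before and after centring. For the members named, 6 of 460 alternatives were past the threshold and 0 were reversed, but as no member was past it to begin with this says nothing about stability. With 1 library or line left out, day 1 values ranged from 0.03 to 0.76 for CEBPB and 0.18 to 1.99 for DDIT3, day 7 values from 0.05 to 1.14 for CHAC1, 0.04 to 0.45 for CEBPB, 0.34 to 0.90 for VLDLR and 0.31 to 0.62 for SEL1L, and day 7 values against day 1 from -1.67 to -0.21 for DDIT4, -1.03 to -0.08 for CHAC1 and -1.22 to -0.52 for MANF. The cause of these differences was not tested.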

Other observations

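Genes of tRNA charging, which ATF4 is also known to induce, did not follow the ATF4 arm in NCI-H2009 at day 1. The median of 20 cytosolic tRNA synthetase genes at day 1 was -0.36 in NCI-H2009, where the ATF4 arm was at 1.89, and -0.17, -0.35 and 0.01 in LC-2/ad, NCI-H2228 and HCC4006. At an unadjusted p under 0.05 in edgeR 1 was higher and 4 lower, beside 10.6% and 9.01% of all genes, and none was past the adjusted threshold. FARSB, a subunit of the phenylalanine enzyme, was at 50.5, 34.5, 39.8 and 26.2 TPM attached and 12.1, 22.8, 14.3 and 19.6 TPM after 1 day, lower in the 4 lines (-1.0 ± 0.29, edgeR adjusted p = 0.116). VARS1, the valine enzyme, was also lower in the 4 lines (-0.71 ± 0.21, edgeR adjusted p = 0.118). At day 7 against attached the list medians were -0.53, -0.11, 0.11 and -0.12. From day 1 to day 7 they were -0.27, -0.01, 0.59 and -0.07, beside -1.86, -0.08, 1.23 and 0.12 for the ATF4 arm. In that interval NCI-H2009 and NCI-H2228 thus had the direction of the ATF4 arm, as NCI-H2228 did at day 1, where the arm was at -0.98. At day 7 against attached VARS1 was again lower in the 4 lines (-0.48 ± 0.21), and WARS1, the tryptophan enzyme, was higher in 3 of 4 (0.77 ± 0.34).

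The mitochondrial stress list of 10 genes had day 1 medians of 0.21, -0.12, -0.15 and 0.03, with 0 at an unadjusted p under 0.05 in edgeR, beside 19.6% of all genes. Its chaperone HSPD1 stood at 1077.8, 675, 458 and 633 TPM attached and 258, 500.5, 284 and 544 TPM after 1 day (-0.75 ± 0.35, edgeR adjusted p = 0.27), and the co-chaperone HSPE1 had -0.44 ± 0.21 at day 7. OMA1, the protease that relays mitochondrial stress to the eIF2 kinases, had 0.42 ± 0.22 at day 1 and was higher in the 4 lines at day 7 (0.77 ± 0.22, edgeR adjusted p = 0.162).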
